A study of Mus musculus with 9 samples.

Results

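Expression was examined for 42 genes of glucose uptake, glycolysis and the response to low oxygen, chosen by name and matched by Entrez gene number to 42 of the 27179 entries counted in each library. They comprised 5 genes of glucose uptake and phosphorylation, 13 core enzymes from glucose 6-phosphate to pyruvate, 2 PFKFB regulators, 4 genes of pyruvate and lactate handling, 14 other targets of the hypoxia-inducible factors (HIF), and 4 HIF subunits and regulators. The cells were AML246, a mouse acute myeloid leukaemia line of C57BL/6 origin that lacks p53 and carries a hairpin against PU.1, a transcription factor of myeloid cells whose gene is Spi1. Clones 1, 2 and 4, each grown from 1 cell of this line in medium with IL3, were measured by RNA-seq in 3 conditions, so that each group held 3 libraries and all 9 shared the p53 loss and the hairpin. The untreated group and the washed group, which had 14 days of doxycycline and then 14 days without it, were sorted as GFPhigh. The doxycycline group was sorted as GFPoff after 14 days of the drug. Spi1 stood at 23.7 to 52.0 CPM (counts per 1e6 counts, TMM-scaled) in the 6 GFPhigh libraries and at 156 to 197 CPM in the 3 doxycycline libraries. Doxycycline, the GFP gate and the hairpin changed together and cannot be told apart. With 3 clones of 1 line as replicates, p-values reflect how much those clones vary and nothing wider. Where clone is a block in the model, they reflect how much the differences between conditions vary among those clones.

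Glycolysis splits glucose into pyruvate, and cells that regenerate NAD by making lactate depend on lactate dehydrogenase and a lactate exporter to keep it running. HIF is a pair of proteins, an alpha subunit (HIF-1alpha from Hif1a or HIF-2alpha from Epas1) and the constant partner ARNT. With oxygen present, the prolyl hydroxylases EGLN1 and EGLN3 mark the alpha subunit, VHL binds it and it is degraded, so HIF activity is set largely at the level of protein. HIF binds the DNA core sequences ACGTG and GCGTG and raises most glycolytic genes together with genes of mitophagy, collagen hydroxylation, angiogenesis and its own hydroxylases.

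Library totals ran from 7408118 to 9803258 counts, and 40 of the 42 genes passed the filter on low counts. Ldhb had 0 counts in all 9 libraries, and Epas1 had 1 to 33 counts. Washed clone 1 stood apart. It held the lowest level of the 6 GFPhigh libraries for 34 of the 40 genes (85.0%, against 35.6% of all 12004 genes tested), with Spi1 at 52.0 CPM against 23.7 to 48.1 CPM in the other 5. Its Mpo level, a primary granule enzyme, was 1720 CPM against 50 to 82.7 CPM in the other GFPhigh libraries. Mitochondrial transcripts took 2.66% and 3.28% of counts in the doxycycline and washed libraries of clone 1, against 7.52% to 22% in the other 7. In untreated clone 1, 1 entry without a symbol took 22% of counts and the TMM factor was 0.736, against 0.916 to 1.18 elsewhere. Results are therefore also given without each of these libraries. Neutrophil markers (9 genes) summed to 21.6 to 100 CPM in GFPhigh and 583 to 2390 CPM in doxycycline libraries. S100a8, S100a9, Lcn2, Ngp, Cxcr2 and Ltf were higher with doxycycline than untreated in every clone, Ltf in clone 1 only from 7.34 to 9.44 CPM. Camp did not follow, at 11.4, 4.79 and 1.48 CPM untreated and 11.9, 3.44 and 3.39 CPM with doxycycline in clones 1, 2 and 4. Mmp8 and Mmp9 did not pass the filter. Mast, basophil and eosinophil markers (9 genes) summed to 11000 to 14900 CPM in GFPhigh and 4300 to 6020 CPM in doxycycline libraries. Epx was the largest part of the sum of these markers, at 7320 to 10900 CPM in GFPhigh and 2650 to 4780 CPM in doxycycline libraries. Epx, Cpa3, Cma1, Gata2 and Prg2 were lower with doxycycline than untreated in every clone. Siglecf went the other way, at 0.368 to 4.14 CPM in GFPhigh and 15.2 to 48.9 CPM in doxycycline libraries. Mcpt8 was higher with doxycycline in clones 2 and 4 and lower in clone 1, and Ms4a2 did not pass the filter. Leukocyte and myeloid markers (10 genes) summed to 445 to 857 CPM in GFPhigh libraries other than washed clone 1, to 3580 CPM in that library and to 815 to 1850 CPM in doxycycline libraries. Within that list Ptprc, the general leukocyte marker CD45, was at 0.489 to 2.02 CPM in GFPhigh and 28.0 to 45.1 CPM in doxycycline libraries, while the granule enzyme genes Mpo, Elane, Prtn3 and Ctsg were each lower with doxycycline than untreated in every clone. Of the T and B cell markers, Cd3g and Cd79b alone reached 1 CPM; of the stromal and endothelial markers, Pecam1 alone did, and erythroid markers (8 genes) summed to 1.59 to 29.8 CPM. Fcer1a, a mast cell and basophil receptor chain, had 0 counts in all libraries. The part of these markers in the results was not tested, and in bulk RNA fewer cells of a type and less RNA per cell cannot be told apart.

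Promoters were examined for the HIF core because most of these genes are known HIF targets. RefSeq promoters on GRCm38.p6, from 250 bases before to 50 after each start, matched 38 of the 42 genes in 55 entries; Slc2a3, Bnip3l, Ndrg1 and Epas1 had no entry. On either strand, ACGTG was present in 52.7% of these promoters and in 19.6% of all 32851 in the table, and GCGTG in 56.4% against 32.4%. For the other HIF targets the share with ACGTG was 68.8%. The PU.1 core GAGGAA was present in 27.3% against 28.3%. ACGTG and GCGTG hold the letters CG and GAGGAA does not, and the promoters compared were not matched for CG content. Because most of the genes are known HIF targets, a higher share of the HIF core was likely beforehand and is not read as a result. The E-box CACGTG, which contains ACGTG on both strands, was present in 9.09% against 7.15%. Among the 18 genes that were lower with doxycycline once clone was a block in the model (described below), ACGTG was present in 50% of promoters, and among the other tested genes in 57.7%. The stretches below are the parts of 8 promoters that hold the core, shown 5′ to 3′ on the strand of the gene for 6 genes of the lower set and for the pair that was higher. The 6 are those of smallest adjusted p among the lower genes with ACGTG before the start. Eno2 and Eno1, which had the smallest adjusted p of the 18, and Pfkl were passed over because they lacked ACGTG. Eno1 and Pfkl held GCGTG, and Eno2 held neither core. Capitals mark ACGTG or its reverse complement CACGT and, in Hk3, TTCCTC, the reverse complement of GAGGAA. A match is a description of letters and not a bound site.
Pgk1 (chrX:106186930-106186993, plus strand): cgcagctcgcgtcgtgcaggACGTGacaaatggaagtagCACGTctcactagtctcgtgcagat
Hilpda (chr6:29272563-29272607, plus strand): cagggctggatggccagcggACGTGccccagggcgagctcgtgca
Ldha (chr7:46845639-46845794, plus strand): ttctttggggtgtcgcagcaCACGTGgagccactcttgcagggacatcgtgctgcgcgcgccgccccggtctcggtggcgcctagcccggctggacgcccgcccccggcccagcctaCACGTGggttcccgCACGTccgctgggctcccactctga
Ankrd37 (chr8:45999851-46000100, minus strand): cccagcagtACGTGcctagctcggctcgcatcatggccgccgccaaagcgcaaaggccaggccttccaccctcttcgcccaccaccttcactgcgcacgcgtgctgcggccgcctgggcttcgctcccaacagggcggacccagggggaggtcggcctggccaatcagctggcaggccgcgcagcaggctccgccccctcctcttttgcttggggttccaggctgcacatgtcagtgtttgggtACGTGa
Egln3 (chr12:54204079-54204123, minus strand): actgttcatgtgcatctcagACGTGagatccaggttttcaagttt
Egln1 (chr8:124949298-124949342, minus strand): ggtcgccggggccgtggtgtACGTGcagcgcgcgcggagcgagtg
Hif1a (chr12:73907712-73907821, plus strand): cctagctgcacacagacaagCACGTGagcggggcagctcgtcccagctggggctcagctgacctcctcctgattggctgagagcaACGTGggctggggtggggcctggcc
Hk3 (chr13:55021517-55021615, minus strand): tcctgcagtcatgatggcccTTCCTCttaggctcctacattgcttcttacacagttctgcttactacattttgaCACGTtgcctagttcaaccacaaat

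Doxycycline against untreated asks which of these genes differ once the hairpin is switched off. Most stood lower in the doxycycline library of their own clone. Of the 40 genes tested, 29 were lower in all 3 clones (32.1% of all genes tested were) and 5 were higher in all 3 (31.3%). All 14 other HIF targets, all 3 tested genes of pyruvate and lactate and 10 of 13 core enzymes were lower in every clone. With library size in place of TMM, 25 genes were lower in all clones, and Slc2a1, Hk2, Gpi1 and Ddit4 dropped out. The 32.1% is the share under TMM and does not apply to that count. Group ranges did not overlap for 8 lower genes (18.5% of all genes), which were Pgk1, Eno1, Eno2, Ldha, Ankrd37, P4ha2, Ddit4 and Hilpda, and for 2 higher genes (20.4%), Hk3 and Hif1a. The median log2 fold change was -0.92 over the 40 genes and 0.00 over all genes. Scaling by library size moved these medians to -0.72 and 0.23.

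By edgeR's quasi-likelihood test with Benjamini-Hochberg adjustment over 12004 genes and no clone term, 2 genes rose (6.57% of all genes did), Hk3 and Hif1a, and 1 fell (4.35%), Hilpda. The number of calls depended on whether the model held clone as a block. With the block, 2 genes were higher (13.0% of all genes) and 18 lower (11.7%): 6 core enzymes, all 3 tested genes of pyruvate and lactate, and 9 other HIF targets. Without the block, leaving out washed clone 1 gave 3 higher (10.3%) and 5 lower (8.09%) of 41 genes, and leaving out untreated clone 1 gave 1 higher (1.93%) and 0 lower (0.894%). Leaving out washed clone 1 in the blocked fit gave 3 higher (20.1%) and 26 lower (18.5%) of 41 genes, with all 14 other HIF targets among the lower. Without untreated clone 1 there were 5 higher (10.6%) and 11 lower (8.98%) of 41. In the blocked fit without clone 2 there was 1 higher (3.18%) and 1 lower (1.98%), and without clone 4 there was 1 higher (1.81%) and 0 lower (1.17%), with fewer calls over all genes too. Without clone 1 there were 5 higher (17.7%) and 24 lower (16.2%). The median log2 fold change of the tested genes was -1.04 in the blocked fit with all clones, -0.65 without clone 1, -1.21 without clone 2 and -1.24 without clone 4.

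**Figure D1:**
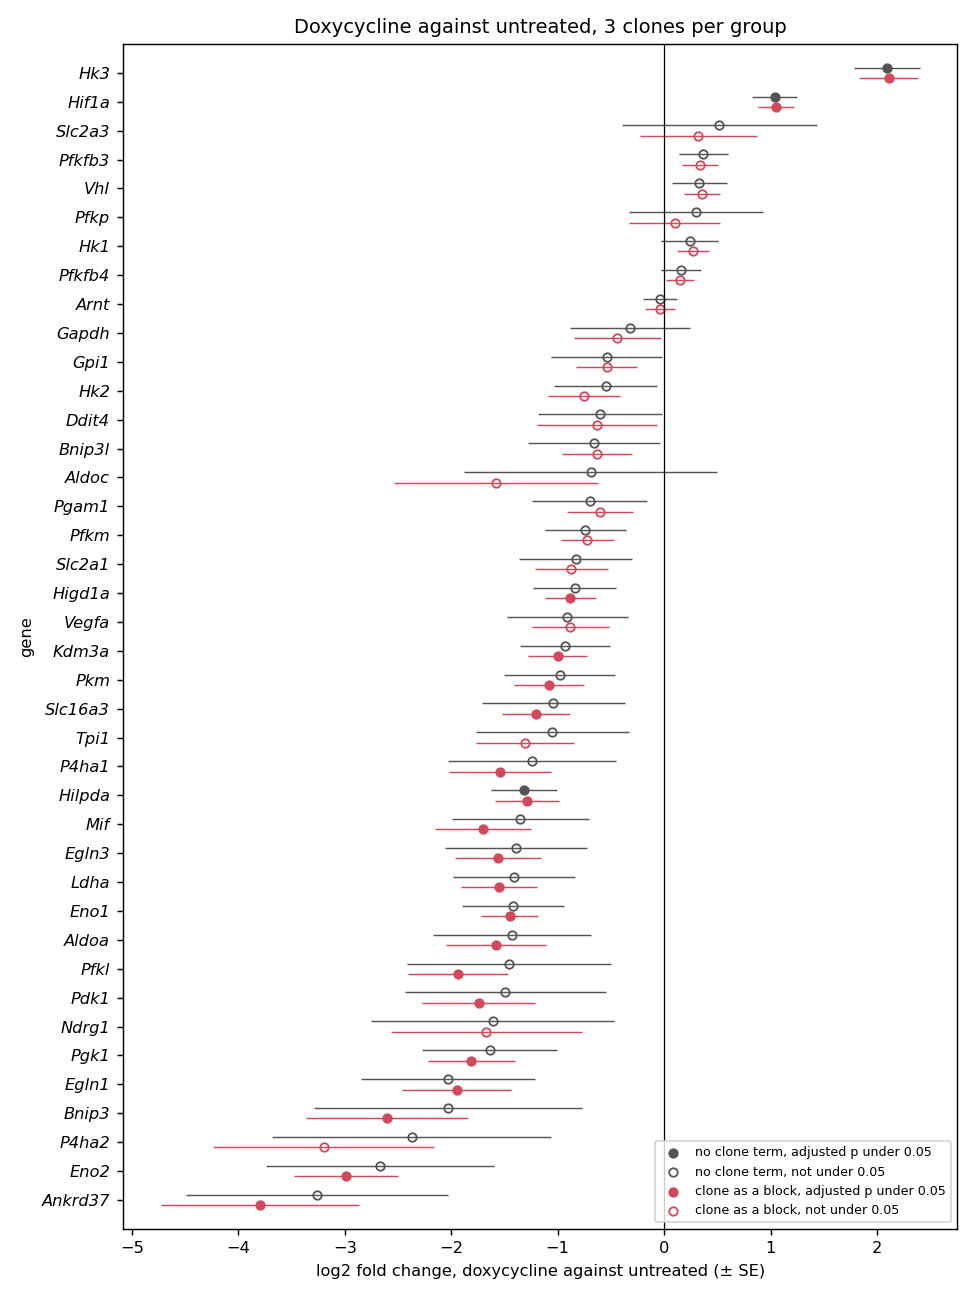
Log2 fold change of each of the 40 tested genes, doxycycline against untreated, with its standard error (horizontal axis), from the fit without a clone term (grey) and with clone as a block (red); filled points have an adjusted p under 0.05. Hk3 and Hif1a lie to the right in both fits, and 18 genes on the left are filled with the block.

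**Figure D2:**
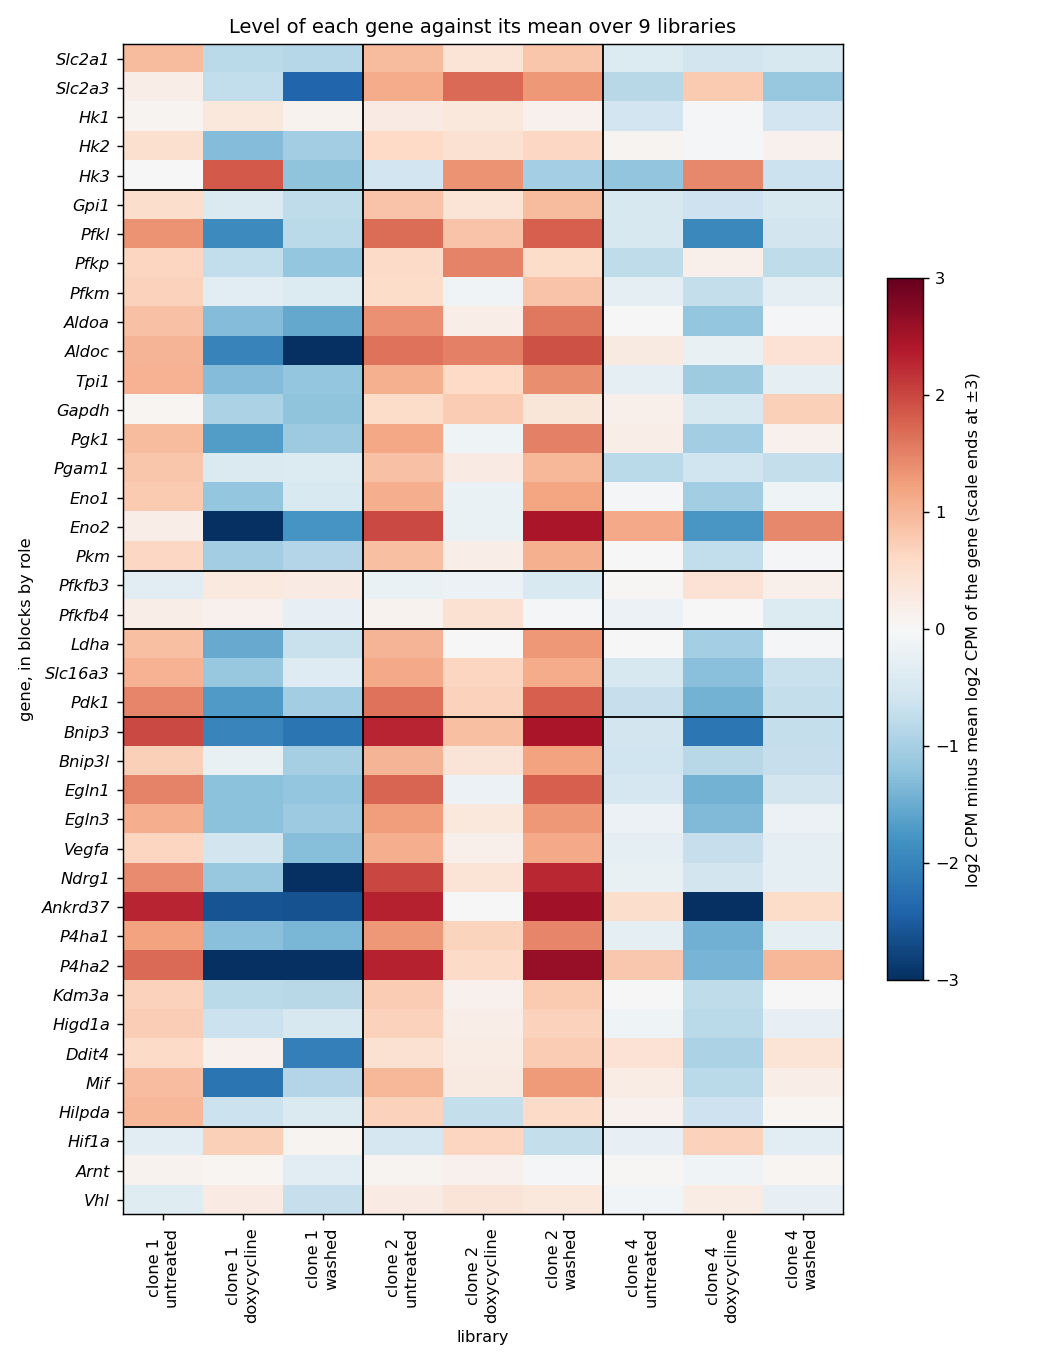
Log2 CPM of each tested gene in each library minus that gene's mean over the 9 libraries, with genes in blocks by role and libraries grouped by clone. Untreated and washed clone 2 are above the mean for most genes, and both the doxycycline and the washed library of clone 1 are below it.

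Among the HIF subunits and their regulator, the transcript of the alpha subunit rose while the partner and VHL did not pass the test. Hif1a (Entrez gene 15251, chromosome 12, 73901324 to 73947554 on GRCm38) stood at 156, 139 and 167 CPM untreated, 324, 307 and 321 CPM with doxycycline and 209, 120 and 157 CPM after washing, in the order clones 1, 2 and 4 that is kept below. All 3 doxycycline values lay above all 6 others. The log2 fold change was 1.04 ± 0.21 (SE), adjusted p = 0.0161. Without clone 2 or clone 4 the adjusted p was 0.0889 and 0.273, and without untreated clone 1 it was 0.0719. With the block, these adjusted p were 0.058, 0.0902 and 0.0128. Epas1, the other alpha subunit, had 1, 4 and 2 counts untreated, 10, 33 and 28 counts with doxycycline and 2, 1 and 2 counts after washing. The doxycycline counts were the highest in each clone, but the gene did not pass the filter when all libraries were used. It passed it once a library of clone 1 or the whole clone was left out, through its doxycycline counts. Epas1 is thus the gene added in each count of 41 genes and in the counts without clone 1, where it may be among those called. It is 1 of the 3 higher genes counted above without washed clone 1. Because the filter passed it through the group where it was high, its calls are not read as a result. Per length, Hif1a made up 98.8% to 99.9% of the sum of both alpha subunits.

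Arnt stood at 67.0, 66.0 and 63.6 CPM untreated, 64.5, 68.5 and 58.2 CPM with doxycycline and 49.6, 60.3 and 64.8 CPM after washing. Its groups overlapped, and the log2 fold change with doxycycline was -0.04 ± 0.16 (adjusted p = 0.899) and, with library size in place of TMM, 0.18. Vhl stood at 37.8, 57.9 and 46.3 CPM untreated, 58.0, 63.8 and 57.2 CPM with doxycycline and 30.0, 60.9 and 41.2 CPM after washing. It was higher with doxycycline in each clone, with overlapping groups and a log2 fold change of 0.33 ± 0.26 (adjusted p = 0.458).

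Of the uptake and hexokinase genes, 1 of 5 rose (6.57% of all genes without the block) and none fell (4.35%). Hk3 (gene 212032, chromosome 13, 55005985 to 55021475), a hexokinase found chiefly in myeloid cells, stood at 25.9, 17.3 and 11.4 CPM untreated, 93.3, 66.5 and 70.6 CPM with doxycycline and 11.2, 12.7 and 16.5 CPM after washing. The lowest doxycycline value was above the highest of the other 6. The log2 fold change was 2.09 ± 0.31, adjusted p = 0.00527. Without clone 2 or clone 4 it was 2.14 and 1.88, with adjusted p of 0.0752 and 0.147 without the block. With the block, the adjusted p without clone 2 or clone 4 was 0.0401 and 0.0297. Hk1, the broadly expressed hexokinase and the highest of this role per length (83.0 RPKM, read counts scaled by library and gene length, averaged over 9 libraries), stood at 388, 434 and 246 CPM untreated, 453, 456 and 349 CPM with doxycycline and 396, 403 and 245 CPM after washing. It was higher with doxycycline in each clone and did not pass the test (0.24 ± 0.27, adjusted p = 0.623). Hk2, the hexokinase known as a HIF target, stood at 343, 370 and 260 CPM untreated, 99.0, 333 and 233 CPM with doxycycline and 119, 376 and 267 CPM after washing. Its 2 low values were the doxycycline and washed libraries of clone 1 (log2 fold change -0.55 ± 0.48, adjusted p = 0.503).

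Neither glucose transporter passed the test with all libraries. Slc2a1, which encodes GLUT1, stood at 223, 222 and 87.0 CPM untreated, 66.7, 153 and 79.3 CPM with doxycycline and 64.2, 206 and 82.7 CPM after washing. Slc2a3, which encodes GLUT3, stood at 182, 340 and 87.6 CPM untreated, 93.1, 512 and 269 CPM with doxycycline and 29.7, 390 and 71.8 CPM after washing. Slc2a1 was lower with doxycycline in all clones, whereas Slc2a3 was lower in clone 1 and higher in clones 2 and 4. The adjusted p was 0.346 for Slc2a1 and 0.757 for Slc2a3, and without washed clone 1 Slc2a1 was lower with the block (-0.80 ± 0.27, adjusted p = 0.0461).

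With the block, 6 of 13 core enzymes were lower with doxycycline (11.7% of all genes) and 0 were higher (13.0%). Without it 0 passed, and 3 were lower at an unadjusted p under 0.05 (12.5%). Aldoa (gene 11674, chromosome 7, 126795234 to 126800994), the aldolase of most tissues and the highest core enzyme per length (1420 RPKM on average), stood at 3640, 5130 and 1990 CPM untreated, 815, 2300 and 887 CPM with doxycycline and 684, 5980 and 1950 CPM after washing. Each clone was lower with doxycycline than untreated, and washed clone 1 was lower still. The log2 fold change with the block was -1.58 ± 0.47 (adjusted p = 0.0412, against 0.253 without the block). Pfkl, the liver-type phosphofructokinase that commits sugar to glycolysis, stood at 646, 813 and 183 CPM untreated, 68.0, 463 and 66.2 CPM with doxycycline and 146, 880 and 172 CPM after washing. Its doxycycline library was the lowest in each clone, but clone 2 with doxycycline exceeded clone 4 without it (blocked -1.94 ± 0.47, adjusted p = 0.0215, against 0.368).

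Pgk1 (gene 18655, chromosome X, 106187100 to 106203699), which makes the first ATP of the pathway and carries 2 HIF cores in the stretch printed above, stood at 220, 251 and 130 CPM untreated, 35.3, 103 and 54.8 CPM with doxycycline and 52.7, 323 and 122 CPM after washing. Eno1 (gene 13806, chromosome 4, 150236708 to 150248879), the main enolase, stood at 921, 1130 and 521 CPM untreated, 238, 465 and 257 CPM with doxycycline and 390, 1210 and 484 CPM after washing. For both, the doxycycline range lay below the untreated range. The blocked log2 fold change was -1.81 ± 0.41 for Pgk1 (adjusted p = 0.0165, against 0.128 without the block) and -1.45 ± 0.27 for Eno1 (adjusted p = 0.00777, against 0.0931). Eno1 shares reads with the near-identical Eno1b, which stood at 43.8 to 183 CPM, so its exact level is uncertain. Eno2, the enolase of neurons and other cells, stood at 8.62, 30.6 and 16.9 CPM untreated, 0.529, 6.48 and 2.13 CPM with doxycycline and 2.12, 42.3 and 20.8 CPM after washing. It had the largest fold change of the core enzymes in both fits, with all doxycycline values below all untreated ones (blocked -2.99 ± 0.49, adjusted p = 0.00490, against 0.142).

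Pkm, pyruvate kinase, stood at 3610, 4420 and 2370 CPM untreated, 1150, 2720 and 1410 CPM with doxycycline and 1280, 4950 and 2270 CPM after washing, and was lower with the block (-1.08 ± 0.33, adjusted p = 0.0465, against 0.264). Of the remaining isozymes, Pfkp stood at 136, 131 and 51.8 CPM untreated, 52.8, 245 and 97.6 CPM with doxycycline and 39.2, 130 and 51.3 CPM after washing. Clones 2 and 4 were higher and clone 1 lower with doxycycline. Pfkm stood at 85.3, 77.6 and 43.7 CPM untreated, 42.3, 49.2 and 32.3 CPM with doxycycline and 39.3, 95.7 and 43.3 CPM after washing. Aldoc stood at 232, 358 and 139 CPM untreated, 28.4, 325 and 98.0 CPM with doxycycline and 4.69, 428 and 156 CPM after washing. Both were lower with doxycycline in each clone, and washed clone 1 had the lowest Aldoc level of all libraries. In the fit without the block the adjusted p was 0.793 for Pfkp, 0.245 for Pfkm and 0.750 for Aldoc; in the blocked fit without washed clone 1, Pfkm was lower (adjusted p = 0.00820).

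Gpi1, Tpi1, Gapdh and Pgam1 complete the core enzymes and were not called in either fit, with log2 fold changes of -0.32 to -1.05 without the block. Tpi1, triose phosphate isomerase, was lower in the blocked fit without washed clone 1 (-1.18 ± 0.33, adjusted p = 0.0233). Gapdh was at 2.85 to 11.5 CPM and 6.05 RPKM on average, against 675 RPKM for Tpi1, the enzyme beside it in the pathway. Gapdh has many processed pseudogenes, and how reads with several matches were counted is not given in the sources used here, so its level is uncertain.

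PFKFB enzymes set the level of fructose 2,6-bisphosphate, an activator of phosphofructokinase, and neither of the 2 passed the test. Pfkfb3, the higher per length, stood at 56.3, 61.3 and 72.8 CPM untreated, 87.1, 63.0 and 95.5 CPM with doxycycline and 84.2, 51.7 and 79.3 CPM after washing. Pfkfb4 stood at 49.5, 46.5 and 38.3 CPM untreated, 47.3, 59.0 and 43.3 CPM with doxycycline and 36.5, 41.5 and 32.7 CPM after washing. Untreated and doxycycline groups overlapped for both, with log2 fold changes of 0.37 ± 0.23 (adjusted p = 0.352) and 0.16 ± 0.19 (adjusted p = 0.639). Both are known HIF targets in other cells. All 3 washed values of Pfkfb4 lay below its doxycycline values, and in washed clone 1, where the other HIF targets were lowest among GFPhigh libraries, Pfkfb3 was the highest GFPhigh value.

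All 3 tested genes of pyruvate and lactate were lower with the block (11.7% of all genes), and 0 passed without it (4.35% of all genes were lower). Ldha (gene 16828, chromosome 7, 46842274 to 46855627), which turns pyruvate into lactate and has 2 copies of CACGTG in the stretch printed above, stood at 2710, 2940 and 1480 CPM untreated, 511, 1470 and 709 CPM with doxycycline and 922, 3540 and 1400 CPM after washing. The highest doxycycline value, clone 2, was just under the lowest untreated value, clone 4. Slc16a3, the lactate exporter MCT4, stood at 640, 683 and 225 CPM untreated, 141, 483 and 129 CPM with doxycycline and 237, 678 and 195 CPM after washing. Pdk1, the kinase that holds pyruvate back from the mitochondria, stood at 189, 210 and 42.0 CPM untreated, 20.7, 111 and 25.4 CPM with doxycycline and 33.1, 237 and 41.4 CPM after washing. For these last genes clone 2 with doxycycline exceeded untreated clone 4, so that the groups overlapped although each clone was lower. Blocked log2 fold changes were -1.55 ± 0.36 for Ldha (adjusted p = 0.0181, against 0.145 without the block), -1.20 ± 0.32 for Slc16a3 (0.0293 against 0.356) and -1.74 ± 0.53 for Pdk1 (0.0460 against 0.344).

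With the block, 9 of the 14 other HIF targets were lower (11.7% of all genes) and 0 were higher (13.0%). All 14 were below their untreated level in each clone under TMM (32.1% of all genes were). Scaled by library size, 13 of 14 were, and the 32.1% does not apply to that count. Under TMM the medians were -2.39, -0.94 and -0.98 on the log2 scale in clones 1, 2 and 4. Hilpda (gene 69573, chromosome 6, 29272488 to 29275449), an inhibitor of lipid breakdown, fell in the fit without the block. It stood at 35.0, 28.6 and 19.0 CPM untreated, 11.1, 10.6 and 11.3 CPM with doxycycline and 12.9, 26.1 and 18.1 CPM after washing, with a log2 fold change of -1.32 ± 0.31 (adjusted p = 0.0283). The doxycycline values were nearly equal and lay below all others. Without the block, leaving out any clone gave an adjusted p of 0.081 to 0.233. Leaving out untreated clone 1 gave 0.113 and scaling by library size gave 0.0576. With the block, leaving out clones 1, 2 and 4 in turn gave an adjusted p of 0.00562, 0.0969 and 0.0777. Blocked values were 0.0444 without untreated clone 1 and 0.0248 with library size. Ankrd37 (gene 654824, chromosome 8, 45996908 to 46000414), a small ankyrin repeat protein, stood at 40.5, 41.9 and 12.0 CPM untreated, 1.24, 8.07 and 0.872 CPM with doxycycline and 1.20, 48.3 and 12.1 CPM after washing. It had the largest fold change of all 40 genes, with doxycycline below untreated in every pairing of libraries (blocked -3.80 ± 0.93, adjusted p = 0.0217, against 0.124).

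Bnip3 (gene 12176, chromosome 7, 138890836 to 138909506), a receptor for mitophagy, stood at 479, 592 and 82.9 CPM untreated, 30.7, 226 and 26.8 CPM with doxycycline and 26.7, 664 and 73.5 CPM after washing. Washed clone 1 stayed at its doxycycline level, while clones 2 and 4 returned to near their untreated levels (blocked -2.60 ± 0.76 with doxycycline, adjusted p = 0.0401, against 0.341). Egln1, the main HIF prolyl hydroxylase, stood at 365, 438 and 92.2 CPM untreated, 55.5, 115 and 49.0 CPM with doxycycline and 57.6, 456 and 88.7 CPM after washing. Egln3, a HIF-induced hydroxylase of the same family, stood at 393, 445 and 164 CPM untreated, 78.3, 232 and 74.0 CPM with doxycycline and 87.7, 459 and 164 CPM after washing. Both hydroxylases were lower with doxycycline than untreated in each clone, but doxycycline clone 2 exceeded untreated clone 4, so the groups overlapped. The blocked log2 fold changes were -1.95 ± 0.51 (adjusted p = 0.0276, against 0.148) and -1.56 ± 0.40 (0.0249 against 0.221).

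P4ha1, a collagen prolyl hydroxylase subunit, stood at 431, 465 and 155 CPM untreated, 78.3, 296 and 69.7 CPM with doxycycline and 73.2, 521 and 153 CPM after washing. Kdm3a, a histone H3 lysine demethylase, stood at 253, 269 and 158 CPM untreated, 90.9, 173 and 93.2 CPM with doxycycline and 88.8, 273 and 158 CPM after washing. In both, clone 2 with doxycycline was above untreated clone 4, and the blocked log2 fold changes were -1.54 ± 0.48 (adjusted p = 0.0477, against 0.353) and -1.0 ± 0.28 (0.0357 against 0.191). Higd1a, a protein of the mitochondrial inner membrane, stood at 49.5, 47.9 and 27.1 CPM untreated, 19.1, 33.7 and 16.8 CPM with doxycycline and 21.4, 47.8 and 25.0 CPM after washing. Mif, a secreted cytokine and the highest of this role per length (429 RPKM on average), stood at 364, 381 and 226 CPM untreated, 42.3, 230 and 109 CPM with doxycycline and 104, 462 and 221 CPM after washing. The blocked log2 fold changes of these last genes were -0.88 ± 0.24 (adjusted p = 0.0310, against 0.205) and -1.70 ± 0.45 (0.0286 against 0.210). Bnip3l, Vegfa, Ndrg1, P4ha2 and Ddit4 were not called in either fit; their blocked log2 fold changes were -0.63 to -3.20, and all 5 were lower in the blocked fit without washed clone 1 (adjusted p = 0.00366 to 0.0350).

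**Figure D3:**
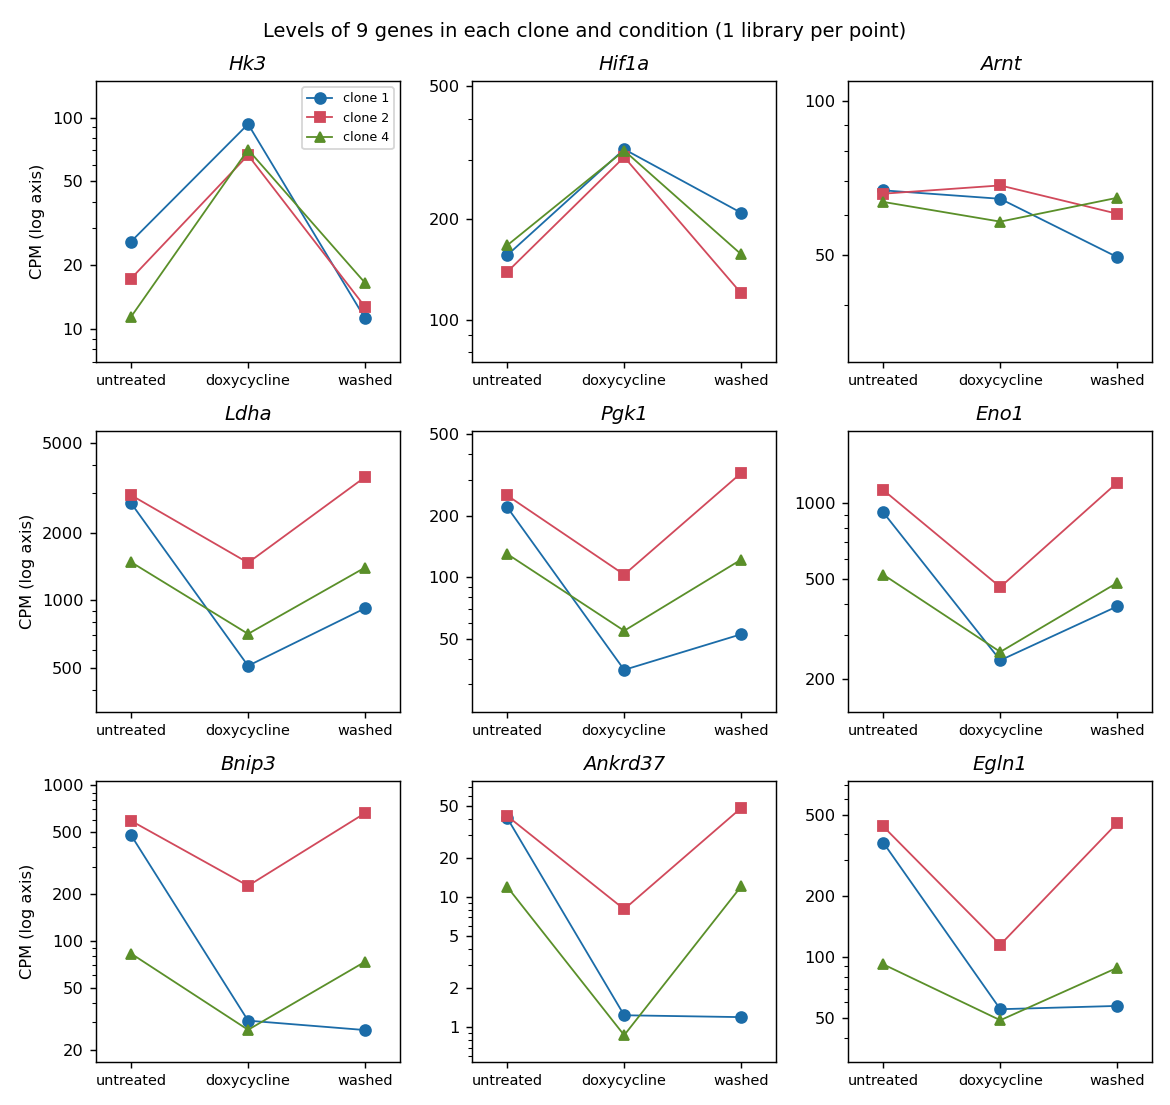
CPM on a log axis of 9 genes in each clone (colour and marker) untreated, with doxycycline and washed, 1 library per point. Hk3 and Hif1a peak with doxycycline in all clones, Arnt is nearly flat, and the remaining 6 genes dip with doxycycline and recover in clones 2 and 4. In washed clone 1 all 6 stay well below untreated, with Bnip3, Ankrd37 and Egln1 near their doxycycline level and Ldha, Pgk1 and Eno1 somewhat above it.

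Washed against doxycycline asks whether the levels return once the drug is removed and the hairpin is made again; the doxycycline libraries are the same as in the first comparison. Of the 40 genes, 15 were higher after washing in all 3 clones (28.0% of all genes were) and 8 were lower (27.2%). Groups did not overlap for 1 higher gene (11.8%), Hilpda, and for 3 lower genes (14.5%), Hk3, Pfkfb4 and Hif1a. Without a clone term, 0 of 40 genes were higher (3.64% of all genes were) and 2 were lower (6.02%), Hk3 by -2.51 ± 0.31 (adjusted p = 0.00255) and Hif1a by -0.97 ± 0.21 (adjusted p = 0.0232). Before adjustment, 3 genes were higher at p under 0.05 (12.4% of all genes), and DESeq2 called 1 higher (7.45%). Without the block and without clone 2 or 4, neither passed: the adjusted p was 0.0646 and 0.109 for Hk3 and 0.137 and 0.364 for Hif1a. Scaling by library size gave 0.0991 for Hif1a. In the blocked fit, Hk3 passed without clone 2 (adjusted p = 0.0367) and without clone 4 (0.018). Blocked Hif1a passed in neither case (0.0905 and 0.118), and with library size it passed (0.0324). With the block and all libraries, 2 genes were higher (10.4%) and 2 lower (12.4%). The higher were Eno1 by 1.02 ± 0.26 (adjusted p = 0.0275, against 0.179) and Eno2 by 2.74 ± 0.48 (0.00654 against 0.128).

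The count of higher genes changed with the libraries left out, and the cause was not tested. In the blocked fit without washed clone 1, 20 of 41 genes were higher (14.8% of all genes) and 3 lower (16.4%), Hk3, Hif1a and Epas1. Epas1 passed the filter through its doxycycline counts, as described above, so its call is not read as a result. The same holds for the other counts without untreated clone 1 or without clone 1, which also tested Epas1. The 20 comprised 7 core enzymes, Ldha and 12 of the 14 other HIF targets. In the fit without the block and without that library, 3 were higher (6.53%) and 3 lower (8.26%); leaving out untreated clone 1 instead gave 0 higher (1.95%) and 3 lower (3.88%) of 41. Without untreated clone 1 the blocked fit gave 12 higher (13.8%) and 6 lower (15.1%) of 41. Without clone 1 altogether it gave 26 higher (17.0%) and 6 lower (18.6%), and without clone 2 or without clone 4 it gave 0 higher (1.20% and 0.994%) and 1 lower (2.29% and 1.66%). Within clones, the other HIF targets had a median log2 ratio of washed to doxycycline of -0.06 in clone 1, 1.00 in clone 2 and 0.94 in clone 4. In clone 1, 9 of these 14 genes were lower after washing than with doxycycline (49% of all genes were), and in clones 2 and 4 none was (49.2% and 48.5%).

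Washed against untreated asks whether a round of doxycycline leaves a trace. By edgeR's quasi-likelihood test 0 of 40 genes passed, with or without the block, as did 0 of 12004 genes overall (0%), and at an unadjusted p under 0.05 without the block there were 0 of the 40 and 38 of all genes. The clones were not alike. In clone 1, 34 of 40 genes were at least 2-fold lower after washing than untreated (1805 of 12004 genes overall), with a median log2 ratio of -1.75. In clones 2 and 4 none differed by 2-fold, and the medians were 0.11 and -0.03; of all 12004 genes, 112 were at least 2-fold lower and 105 higher in clone 2, and 73 and 107 in clone 4. The largest ratios in clone 1 belonged to P4ha2 at 0.828 against 73.2 CPM, Aldoc at 4.69 against 232 CPM and Ndrg1 at 4.23 against 179 CPM, named after their values were seen. Not lower by 2-fold in clone 1 were Hk1, both PFKFB genes, Hif1a, Arnt and Vhl. With 1 library per clone and condition, this contrast within clone 1 has no replicate.

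**Figure D4:**
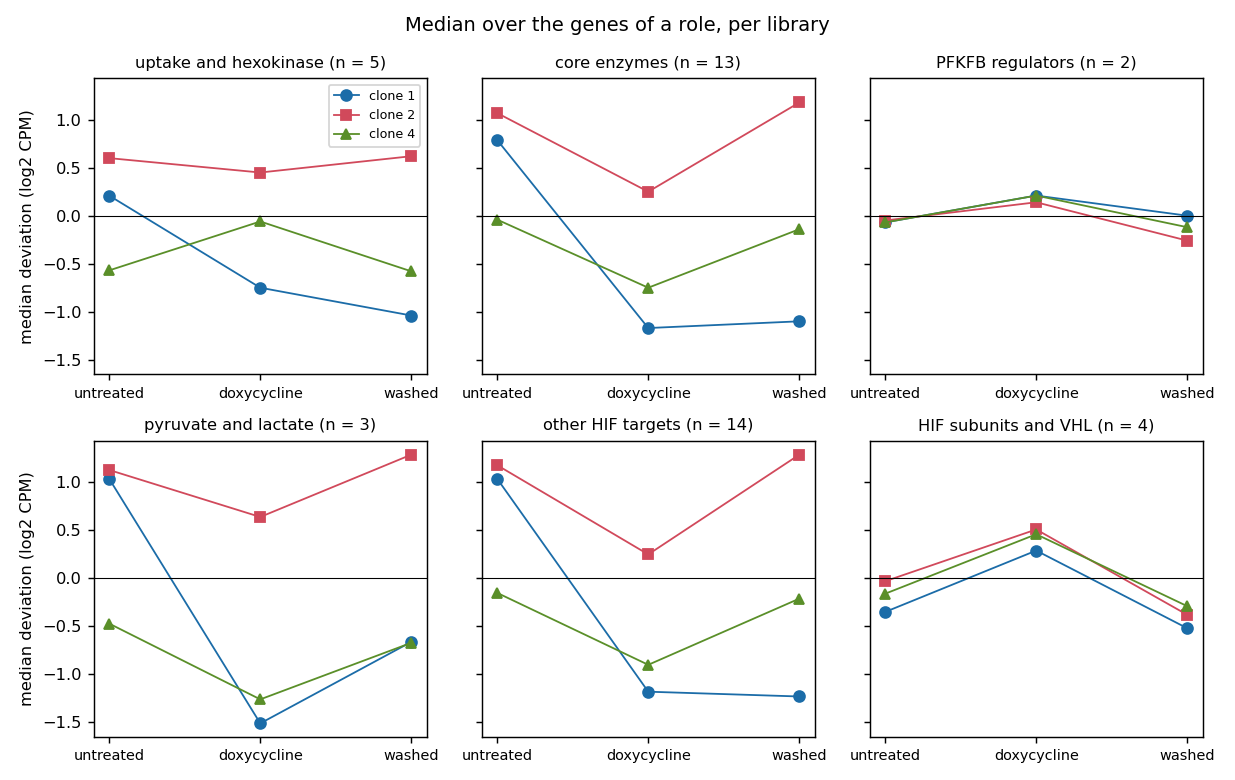
Median over the genes of each role of log2 CPM minus each gene's mean over 9 libraries (vertical axis), per clone and condition, with the number of genes in each title (those with a mean of at least 1 CPM). For the core enzymes and the other HIF targets, clones 2 and 4 dip with doxycycline and return after washing, and clone 1 stays low.

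Levels also varied between clones. The median deviation of the other HIF targets from each gene's mean was 1.04, 1.18 and -0.15 untreated, -1.18, 0.25 and -0.90 with doxycycline and -1.23, 1.29 and -0.21 after washing in clones 1, 2 and 4. Untreated clone 4 thus stood below doxycycline clone 2. Washed clone 2 held the highest level of the 9 libraries for 26 of the 40 genes (65.0%), against 14.3% of all genes. In the test of clone differences with group in the model, 0 of 40 genes and 0 of 12004 passed (0%); 31 of the 40 and 4501 of all genes had an unadjusted p under 0.05, and the smallest adjusted p among the 40 was 0.0518, for Eno2. DESeq2 called 27 of the 40, with 22.9% of all genes called, and limma voom 11, with 8.44%. Without washed clone 1, edgeR called 24 of 41 (14.6%), and without untreated clone 1 it called 33 of 41 (29.8%). The smallest differences were those of Arnt, Hilpda, Pfkfb4, Hk3, Pfkfb3 and Hif1a, with log2 differences of -0.35 to 0.20 against clone 1.

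The median log2 ratio of doxycycline to untreated over the 40 genes was -1.70 in clone 1, against -0.63 in clone 2 and -0.70 in clone 4. The edgeR test of a different response between clones, with both GFPhigh libraries of a clone in 1 group, called 0 of 40 genes and 0 of 12004 (0%). At an unadjusted p under 0.05 there were 0 of the 40 and 407 of all genes. DESeq2 called 0 of the 40 and 5 of all 12004 (0.0417%). Without washed clone 1 edgeR called 30 of 41 (20.4%), and without untreated clone 1 it called 29 of 41 (33.9%). Those fits take their spread from the differences between untreated and washed libraries of clones 2 and 4 alone. Without washed clone 1, the response of Bnip3 differed from that of clone 1 by 2.49 in clone 2 and 2.42 in clone 4 on the log2 scale. The low share of mitochondrial transcripts in the doxycycline and washed libraries of clone 1 went with their low levels of these genes; its part was not tested.

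Isozyme shares, which compare genes per length within a library, also differed between conditions. Hk3 made up 3.84% ± 1.07 (SD, n = 3) of summed hexokinase RPKM untreated, 15.3% ± 4.11 with doxycycline and 3.38% ± 1.17 after washing, and Hk2 made up 41.5% ± 2.88, 25.1% ± 11.3 and 35.4% ± 14.2. The Hk3 share was highest with doxycycline in each clone, at 19.4%, 11.2% and 15.3%. Pfkl held 72.3% ± 7.44 of phosphofructokinase untreated, 45.2% ± 14.6 with doxycycline and 68.4% ± 8.95 after washing, while Pfkp held 14.5% ± 2.55, 35.3% ± 9.57 and 14.7% ± 3.49. The lowest Pfkp share with doxycycline, 29.2%, was above the highest in the other 6 libraries, 17.5%. Slc2a3 held 41.4% ± 7.76 of the summed transporter pair untreated, 61.6% ± 12.2 with doxycycline and 38.1% ± 16.1 after washing, and was higher with doxycycline than untreated in each clone. Aldoa held 86.8% to 99.3% of aldolase, Eno1 97.2% to 99.8% of enolase and Ldha 100% of lactate dehydrogenase in all libraries. No test was run on shares, since 3 libraries against 3 cannot give an exact two-sided p under 0.10.

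**Figure D5:**
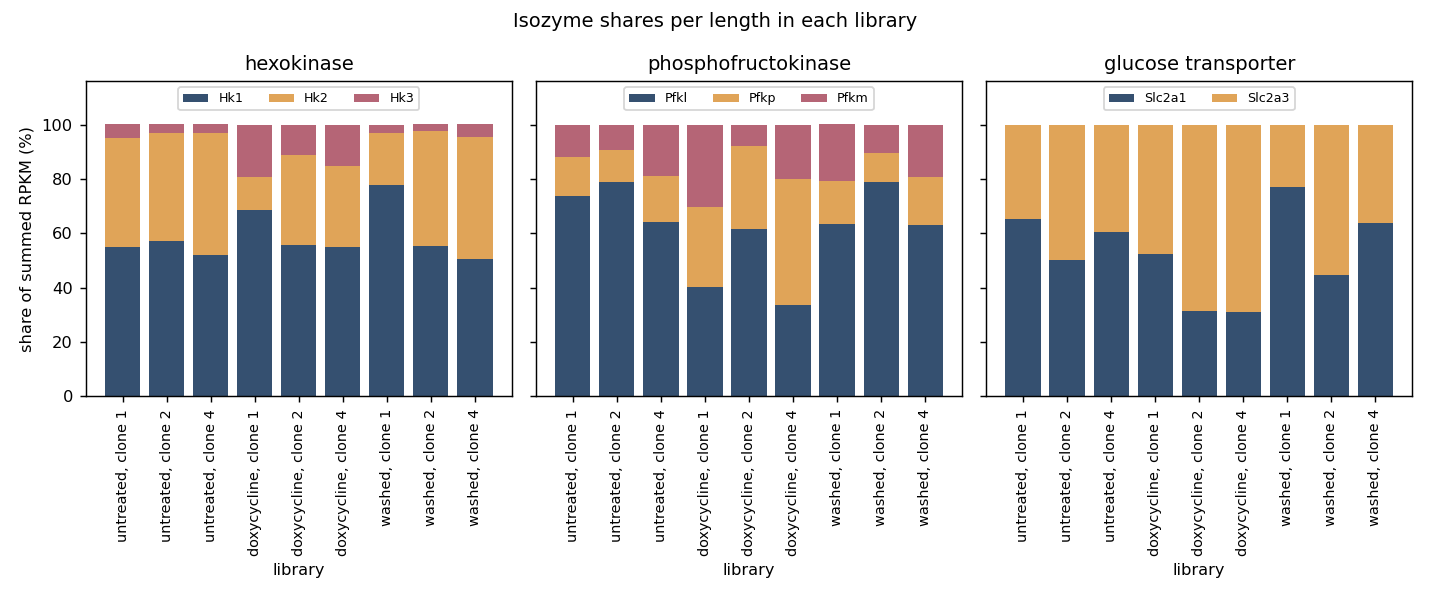
Share of each isozyme in the summed RPKM of hexokinase, phosphofructokinase and the glucose transporters (stacked to 100%) in each library. The Hk3 and Pfkp segments are widest in the 3 doxycycline libraries of their panel, and Slc2a3 exceeds Slc2a1 in doxycycline clones 2 and 4 and in washed clone 2.

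Other genes of the same pathways were read from 5 lists. Over all genes, 6.57% were higher and 4.35% lower with doxycycline without the block, and 13.0% and 11.7% with it. Of 23 tested further HIF targets, 0 passed with doxycycline without the block, and with it 6 were lower and 1 higher; Stc2, a secreted glycoprotein, was lower by -2.83 ± 0.53 (adjusted p = 0.00820), Gbe1, the glycogen branching enzyme, by -1.05 ± 0.22 (0.0133) and Ero1l, an oxidase of the endoplasmic reticulum, by -1.94 ± 0.47 (0.0207), and Ier3, an early response gene, was higher by 1.11 ± 0.25 (0.0158). Of 12 further isozymes and transporters, 1 rose in the fit without the block, Slc2a6, a transporter of the same family (1.24 ± 0.32, adjusted p = 0.0374), and with the block 3 were lower, Eno1b, Ldhd and Eno3. Of 17 genes of glucose branches, Fbp1, the gluconeogenic fructose bisphosphatase, rose by 1.81 ± 0.35 (adjusted p = 0.0142) and Pgls of the pentose phosphate pathway fell by -0.86 ± 0.23 (adjusted p = 0.0457); the block gave 2 higher and 4 lower. Fbp1 stood at 7.34, 7.81 and 7.66 CPM untreated, 28.2, 13.9 and 37.7 CPM with doxycycline and 4.14, 5.88 and 5.38 CPM after washing, so that its groups did not overlap. Of 12 genes of oxygen sensing, 0 passed without the block and Crebbp, a coactivator of HIF, was higher with it (0.80 ± 0.24, adjusted p = 0.0452). Of 11 genes that bring pyruvate into mitochondrial metabolism, 0 passed without the block; with it Pdhx, a subunit of pyruvate dehydrogenase, was lower (-0.85 ± 0.20, adjusted p = 0.0205) and Pdk3 higher (0.89 ± 0.26, adjusted p = 0.0391).

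After washing, Fbp1 (-2.38 ± 0.36, adjusted p = 0.00576), Slc2a6 (-1.28 ± 0.32, adjusted p = 0.0360) and Ier3 (-1.52 ± 0.36, adjusted p = 0.0302) fell against doxycycline in the fit without the block, and none of the tested genes on these lists rose (6.02% of all genes fell and 3.64% rose). With the block, which called 10.4% of all genes higher, Stc2 was higher (2.03 ± 0.50, adjusted p = 0.0230), as were Car12, a carbonic anhydrase (0.97 ± 0.27, adjusted p = 0.0338), Pgls (0.71 ± 0.17, adjusted p = 0.0189) and Pdhx (0.93 ± 0.20, adjusted p = 0.0147). The median log2 fold change with doxycycline, without the block, was -0.72 for the further HIF targets, -0.87 for the further isozymes and transporters, 0.20 for the glucose branches, 0.08 for oxygen sensing and -0.10 for pyruvate entry into mitochondria, against 0.00 over all genes.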

How the data were processed

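RNA-seq libraries of FACS-sorted cells were deposited by the authors as raw read counts per Entrez gene with a gene length in bases, per the file headers. The submitters' processing notes name mm10, featureCounts, limma 3.22.0, edgeR 3.8.2 and CASAVA 1.8.2. Not given in the sources used here are the aligner, the version of the annotation, whether strand was used and how multi-mapped reads were counted. Symbols, coordinates and promoters came from RefSeq tables of GRCm38.p6, the same build; 25275 of 27179 entries had a symbol, and entries without one were tested but not named.

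The genes, lists and tests were chosen with earlier results of these data known. Genes passing filterByExpr (12004) were scaled by TMM and fitted with edgeR 4.0.16 in R 4.3.3 (quasi-likelihood, 1 mean per group, 9 libraries, Benjamini-Hochberg over all genes, threshold 0.05). Standard errors of log2 fold changes were derived from the F statistic. Log2 CPM used a prior count of 2, and RPKM used the deposited lengths. Clone as a block was an alternative: deviations from group means correlated at 0.29 to 0.69 between libraries of the same clone and at -0.70 to 0.34 between clones, and libraries with 1 clone number come from the same cells, so the numbers pair the libraries. Blocked values stand beside results whose call they change. Other alternatives were RLE and library size scaling, TMM without the largest entry, no filter, 5 CPM in 3 libraries, DESeq2 1.42.0, limma 3.58.1 voom, the 2 groups alone, and leaving out clones or a library of clone 1. No pair of libraries agreed within sampling noise (closest chi-square per degree of freedom 3.47). The code was tested on simulated data. Named are genes called in either fit, the highest of each role per length, isozymes and HIF subunits, and up to 4 called genes per further list and comparison. Without a stated strand setting, overlapping antisense genes cannot be told apart. Figures were drawn with matplotlib 3.10.9.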

Additional observations from a re-analysis of the deposited data

How the results depend on the processing

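No gene called with or without the block changed direction under the alternatives run. For doxycycline against untreated, without a clone term, the 2 higher genes became 1 without untreated clone 1 (1.93% of all genes) and 0 to 3 when a clone was left out (0 to 618 of all genes). The 1 lower gene became 0 with library size alone (257 of all 12004 genes) or without untreated clone 1 (0.894%), 6 with DESeq2 (974 of 12004) and 18 with the replicate block (11.7%). It became 5 with the 2 groups alone (858 of 11671), 5 without washed clone 1 (8.09%), and 0 without any 1 clone (0 to 349 of all genes). With the block, the 2 higher and 18 lower genes became 5 and 11 without untreated clone 1 (10.6% and 8.98% of all genes), and 1 to 5 (1.81% to 17.7%) and 0 to 24 (1.17% to 16.2%) when a clone was left out. For washed against doxycycline without a clone term, the 0 higher genes became 1 with DESeq2 (7.45% of all genes), 2 with the block (10.4%), 3 without washed clone 1 (6.53%) and 0 to 1 without a clone (1 to 399 of all genes). The 2 lower became 1 with library size alone (406 of 12004) and 1 with the 2 groups alone (230 of 11767). They became 3 with no filter (622 of 17582), without washed clone 1 (8.26%) or without untreated clone 1 (3.88%), and 0 to 3 without a clone (3 to 670 of all genes). With the block, the 2 higher became 6 with library size alone (712 of 12004 genes), 5 with no filter, 8 with DESeq2 and 9 with the 2 groups alone. They became 12 without untreated clone 1 (13.8%), 20 without washed clone 1 (14.8%) and 0 to 26 without a clone (0.994% to 17.0%). The 2 lower became 4 with the 2 groups alone, 6 without untreated clone 1 (15.1%) and 1 to 6 without a clone (1.66% to 18.6%). Where no share over all genes is given, these counts are not read as results about these genes. Washed against untreated gave 0 under every alternative run. The clone difference (0 genes) became 23 with library size alone (9.5% of all genes), 20 with no filter (9.46%), 27 with DESeq2 (22.9%) and 11 with voom (8.44%). It became 33 without untreated clone 1 (29.8%) and 24 without washed clone 1 (14.6%). The difference in response (0) became 29 (33.9%) and 30 (20.4%) without these libraries. The cause of these changes was not tested, except that leaving out a clone leaves fewer samples. Blocked fits combined with another choice, and clone tests without a library, were chosen after seeing the data. Among genes not called with doxycycline, Arnt was at 0.18 with library size alone, and with the block at 0.19 with library size alone and 0.02 without untreated clone 1. Aldoc with the block was at 0.15 without untreated clone 1. Leaving out a clone gave log2 fold changes of -0.33 to 0.9 for Pfkp (with the block -0.32, -0.32 and 0.9) and, with the block, -0.37 to 1.15 for Slc2a3. Among the single-gene results followed through the alternatives, a part of all genes and comparisons, 923 values without the block kept their direction and side of the threshold, 92 newly passed, 42 no longer passed and 2 changed sign. With the block 796 kept it, 32 newly passed, 149 no longer passed and 6 changed sign. Not all sign changes are in this count. In washed against doxycycline, limma voom moved Ndrg1 from 1.20 to -0.31, Aldoc from 0.38 to -0.55 and Ddit4 from 0.23 to -0.11. Isozyme shares from CPM without division by length moved by over 1 SD in 14 cases and by less in 40; those that moved include Hk3 to 2.57% untreated and 11% with doxycycline and Slc2a3 to 51.9% untreated; 2 role levels moved with library size alone, both of the PFKFB regulators, and 19 did not.

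The 3 clones of 1 line limit what can be called, and the level of low genes such as Epas1 and Eno2 rests on few counts: 3 counts correspond to 0.265 to 0.55 CPM, which covers counting error alone.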
